A study of Mus musculus with 15 samples.

Results

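In eosinophils grown from BALB/c mouse bone marrow, 1962 of 27402 open chromatin regions (7.16%) carried H3K4me1 and neither H3K4me3 nor H3K27ac. They were chosen by the deposited peak calls of the BALB/c libraries themselves. ATAC peaks of both libraries that shared at least 1 bp were joined, and a joined region counted as open when each library had a peak in it. Such a region was taken when it overlapped an H3K4me1 region called in both libraries and no H3K4me3 or H3K27ac region called in both. All other open regions fell into 3 classes: 14821 with H3K4me3 (54.1%), 3697 with H3K27ac without H3K4me3 (13.5%) and 6922 with none of the 3 marks (25.3%).

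Eosinophils are granulocytes that depend on interleukin 5 and act in allergy and in defence against worms. H3K4me1 is laid down at enhancers, DNA elements that raise the transcription of genes at a distance, and it can precede their activity. H3K27ac is added when an enhancer or promoter is active, and H3K4me3 marks promoters, so an open region with H3K4me1 alone is often called primed or poised. PU.1 is an ETS family transcription factor that is required for normal myeloid development. In macrophages it is known to open enhancers together with partner factors, with deposition of H3K4me1.

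The BALB/c cells were cultured for 14 days, first with stem cell factor and FLT3 ligand at 100 ng/mL each and then with interleukin 5 at 10 ng/mL. ATAC, H3K4me1, H3K4me3 and H3K27ac were each mapped in 2 BALB/c libraries, and PU.1 in 1. Cells from mice titled C57, with the strain label BL6/57, received the same culture and gave 2 ATAC and 2 H3K27ac libraries. The cultures started from unselected marrow, and no label says that libraries came from separate animals. The authors also deposited H3K27ac and PU.1 peak lists that they re-analysed from earlier work, 1 each for cells named Neut, mBMDM and ImmGran. These names read as neutrophils, bone marrow derived macrophages and immature granulocytes, which the labels do not spell out. All positions below are in the mm9 build, and no annotation or genome sequence of that build was used here, so regions are given by position, without genes or sequence.

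The lists differed in length, and this bears on every share below. H3K27ac lists held 14992 and 27527 peaks in the C57 replicates 1 and 2, 21838 in Neut, 59401 in mBMDM and 36357 in ImmGran. PU.1 lists held 62236 peaks in eosinophils, 100426 in Neut, 135034 in mBMDM and 35266 in ImmGran. The weakest peak had a −log10 q of 1.01 in the mBMDM PU.1 list and of 2.00 to 2.05 in the other PU.1 lists. The sequencing depth behind the lists is unknown, so the 95% Wilson interval given beside the main shares covers counting error over regions only. With 1 list per cell type, or 2 libraries of 1 group, no test over samples was possible, and differences between classes are given with 95% Newcombe intervals of the same kind. Regions are not replicates of a cell type.

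The regions with H3K4me1 alone were narrow and moderately open. Their width had a median of 427 bp (lowest 213, highest 3479), against 550 bp in the H3K27ac class, 341 bp in the unmarked class and 600 bp over all open regions. The authors' ATAC fold enrichment had medians of 4.68 and 4.47 in BALB/c replicates 1 and 2. The medians were 4.78 and 4.61 in the H3K27ac class, 4.65 and 4.35 in the unmarked class, and 5.18 and 4.95 over all open regions. Both libraries gave the same order. The H3K4me1 fold had medians of 3.09 and 3.10 in replicates 1 and 2, and the highest values were 9.57 and 8.03. These widths and folds come from the lists that chose the regions and are a description.

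Most regions sat in an H3K4me1 region of their own. They lay in 1935 H3K4me1 regions, of which 1907 held a single one of them and 28 held 2. The median width of these H3K4me1 regions was 1141 bp, against 1047 bp for all 11015 H3K4me1 regions called in both libraries. Of the 1962 open regions, 1247 lay wholly inside H3K4me1, 1147 (58.5%) were centred in its middle 50.0%, 599 nearer to its ends and 216 outside it. For 53, the same H3K4me1 region also held an open region with H3K27ac or H3K4me3.

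The rule kept these regions clear of the BALB/c H3K27ac and H3K4me3 regions, so their distances to them are a description. The nearest BALB/c H3K27ac region lay at a median of 15840 bp, against 13268 bp for the unmarked class, and the nearest H3K4me3 region at 18648 bp, against 14446 bp. H3K27ac was 10000 to 100000 bp away for 1150 regions (58.6%), 1000 to 10000 bp for 548 (27.9%), 100 to 1000 bp for 101 and under 100 bp for 38. H3K4me3 was 100 to 1000 bp away for 75 regions and under 100 bp for 5. For 1 region no H3K27ac region lay on the same chromosome or contig.

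**Figure D1:**
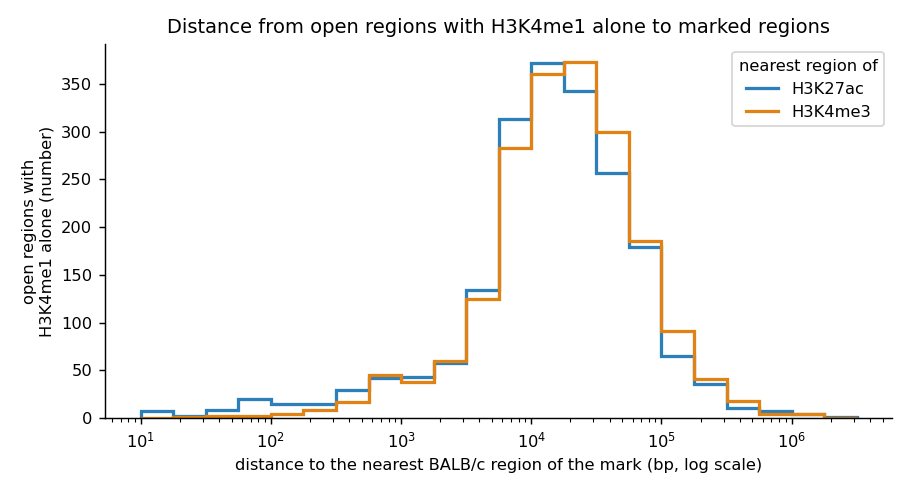
Distance in bp (log scale) from each open region with H3K4me1 alone to the nearest BALB/c H3K27ac (blue) or H3K4me3 (orange) region called in both libraries, as the number of regions per bin. Distances under 10 bp are drawn in the first bin, and both curves peak between 10000 and 100000 bp.

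The choice of regions rested on weak calls for most of the set, and not only at its edges. A peak of H3K27ac in at least 1 BALB/c library overlapped 546 of the regions (27.8%), 433 in replicate 2 and not 1, 108 in replicate 1 and not 2, and 5 in both as separate regions. Replicates 1 and 2 had H3K27ac peaks at 113 and 438 of the 1962, against 196 and 555 of the 6922 unmarked regions. H3K4me3 had a peak in at least 1 BALB/c library at 106 of the 1962 (5.40%). The remaining 1357 regions had no peak of either mark in any BALB/c library. H3K4me1 peaks of both libraries themselves overlapped 1643 of the 1962 regions (83.7%). Only the replicate 1 peak did so at 148 and only the replicate 2 peak at 171, the other peak lying elsewhere in the joined H3K4me1 region. The H3K4me1 −log10 q had medians of 1.97 and 1.86, near the floor of the lists, which was 1.01 in each. Over all open regions with an H3K4me1 peak the medians were 1.90 and 1.82, so such low values were not particular to the set. With peaks of at least 2 in every list only 529 regions met the rule. Just outside the rule, 65 of the 1822 open regions with H3K4me1 and H3K27ac and no H3K4me3 met H3K27ac by under 100 bp, the smallest overlap being 1 bp. Of the unmarked regions, 75 lay within 100 bp of H3K4me1.

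C57 eosinophils had most of these regions open as well. Of the 1962, 1544 were open in both C57 libraries, which is 78.7%, against 88.0% of the H3K27ac class, 70.8% of the unmarked class and 85.5% of all open regions. In neither C57 ATAC list was a peak found at 155 of the 1962, nor at 1556 of all 27402 open regions. Where C57 ATAC peaks were present, their fold had medians of 4.77 and 4.88 in C57 replicates 1 and 2. The medians were 5.00 and 5.10 in the H3K27ac class, 4.74 and 4.87 in the unmarked class, and 5.46 and 5.59 over all open regions.

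Acetylation was also rare at these regions in C57 eosinophils when both C57 libraries were required. H3K27ac called in both lay at 187 of the 1962 regions, or 9.53% (95% Wilson interval 8.31 to 10.9%), against 48.9% of all open regions. The share was 58.4% in the H3K27ac class (difference -48.9 points, interval -50.9 to -46.8) and 4.98% in the unmarked class (difference 4.55, interval 3.21 to 6.01). The result rested on the shorter list. C57 replicate 1 had a peak at 161 regions (8.21%, against 47.0% of all open regions), and C57 replicate 2 at 802 (40.9%, against 66.7%), whether or not the other replicate had one. The difference from the unmarked class was 21.6 points with replicate 2 in place of both. It was 2.87 points without H3K4me1 replicate 2, 2.93 with the unmarked class weighted to the same width and ATAC fold, 2.29 with marks called in either BALB/c library and 1.90 with lists of equal length. A region of 2 joined peaks can reach beyond the replicate 1 peak, so the share called in both can exceed that of replicate 1.

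Regions with an H3K27ac peak in any BALB/c library were acetylated in C57 more often than those with none. Of the 546, 19.8% (16.7 to 23.3%) had H3K27ac in both C57 libraries, against 5.60% (4.50 to 6.95%) of the 1357 regions without a peak of either mark. In C57 replicate 2 these shares were 73.3% and 28.2%. Of the 1544 regions open in both C57 libraries 10.6% were acetylated in both, against 55.2% of all open regions that were open in both. Of the 418 others 5.50% were, against 11.2%.

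Among the other myeloid lists, acetylation was found at up to 50.0% of the regions. H3K27ac overlapped 639 of them in Neut, or 32.6% (30.5 to 34.7%), against 51.4% of all open regions. In mBMDM it overlapped 981, or 50.0% (47.8 to 52.2%), against 68.6% of all open regions. In ImmGran it overlapped 468, or 23.9% (22.0 to 25.8%), against 54.0% of all open regions. Each share was below that of all open regions in the same list.

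In all 3 lists the regions stood between the H3K27ac class and the unmarked class. Against the H3K27ac class the difference was -28.5 points in Neut (-31.0 to -25.8), -17.7 in mBMDM (-20.4 to -15.0) and -34.1 in ImmGran (-36.6 to -31.6). Against the unmarked class it was 13.0 points in Neut (10.8 to 15.3), between 16.5 and 21.5 points in mBMDM (50.0% against 31.0%) and 9.22 in ImmGran (7.20 to 11.3). The 1822 open regions with H3K4me1 and H3K27ac and no H3K4me3 differ from these regions in the rule by H3K27ac only. They were acetylated in Neut at 58.7%, in mBMDM at 68.3% and in ImmGran at 56.4%, close to the H3K27ac class as a whole.

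The higher share in mBMDM moved with the length of its list. With each H3K27ac list limited to its 14992 top-scoring peaks, the shares were 20.7% in Neut (against 41.7% of all open regions), 14.4% in mBMDM (against 37.6%), 9.58% in ImmGran (against 35.0%) and 4.49% in both C57 libraries (against 44.2%). Neut then stood above mBMDM. The order between the classes was as before in each of these lists.

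**Figure D2:**
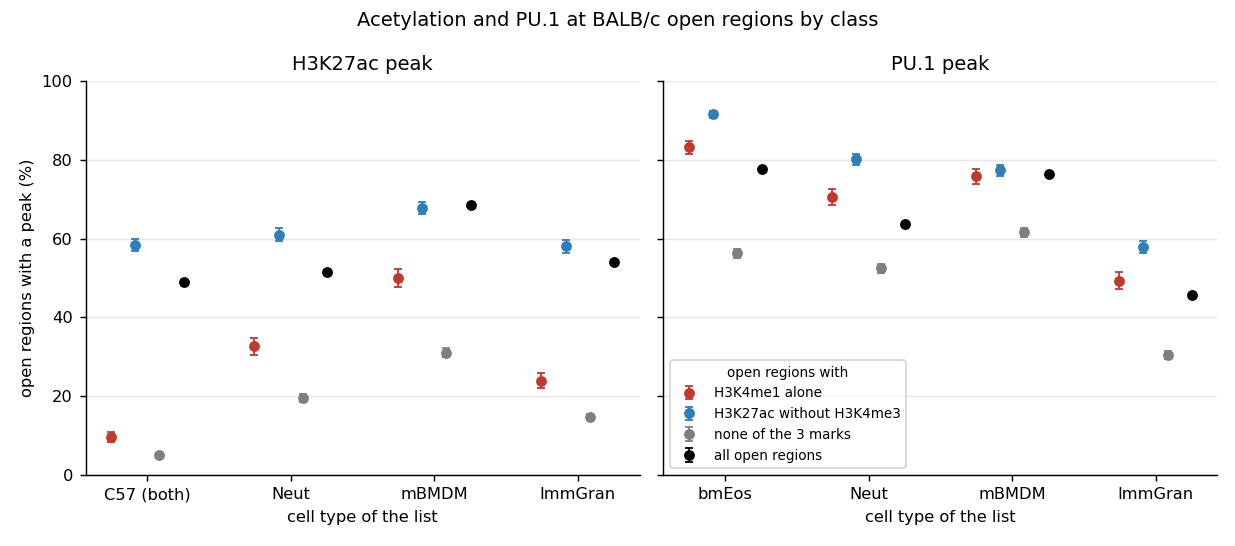
Share of BALB/c open regions (%) with an H3K27ac peak (left) or a PU.1 peak (right) in each list, by class, with points for shares and bars for 95% Wilson intervals. Regions with H3K4me1 alone (red) lie between the H3K27ac class (blue) and the unmarked class (grey) in each H3K27ac list, from 9.53% in C57 to 50.0% in mBMDM, and below all open regions (black).

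Taken over Neut, mBMDM and ImmGran, 1214 regions (61.9%, 59.7 to 64.0%) had H3K27ac in at least 1 list, against 84.3% of the H3K27ac class, 40.1% of the unmarked class and 75.9% of all open regions. The largest group was the 748 regions with H3K27ac in none of the 3 lists (38.1%, against 24.1% of all open regions). The largest acetylated group had it in mBMDM and in neither of the others, with 386 regions (19.7%, against 11.2% of all open regions). A further 235 (12.0%) were acetylated in all 3 lists, against 37.4% of the H3K27ac class and 38.7% of all open regions. Another 225 (11.5%, against 7.72% of all open regions) were acetylated in Neut and mBMDM, and 135 (6.88%, against 2.97%) in Neut alone. Acetylation in mBMDM and ImmGran was found at 135 (6.88%), below the 10.9% of all open regions. ImmGran alone, with 54 (2.75%, against 2.39%), and Neut and ImmGran, with 44 (2.24%, against 2.00%), were near the background. No H3K27ac in these 3 lists or in either C57 library was found at 563 regions (28.7%, against 19.2% of all open regions).

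The 1357 regions with no H3K27ac or H3K4me3 peak in any BALB/c library were also counted apart. Of them 769 (56.7%, 54.0 to 59.3%) were acetylated in at least 1 of the 3 lists, against 75.9% of all open regions. Neut covered 28.7% of the 1357 (against 51.4% of all open regions), mBMDM 45.8% (against 68.6%) and ImmGran 19.7% (against 54.0%). The 1357 lack acetylation peaks in BALB/c only. Of them 964 (71.0%, against 33.0% of all open regions) had no H3K27ac peak in either C57 library. C57 replicate 2 and not 1 had one at 332 (24.5%, against 19.9%), and replicate 1 and not 2 at 10 (0.737%, against 0.292%). Where these 1357 regions were acetylated, the H3K27ac fold had a median of 3.75 in Neut (against 3.79 in the H3K27ac class and 4.14 over all open regions), 3.71 in mBMDM (against 3.65 and 4.37) and 4.37 in ImmGran (against 4.49 and 4.72). In the unmarked class the medians were 3.29, 3.32 and 4.30. The medians of the 1357 were thus nearer to the H3K27ac class in Neut and mBMDM. In ImmGran the median was nearer to that of the unmarked class.

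**Figure D3:**
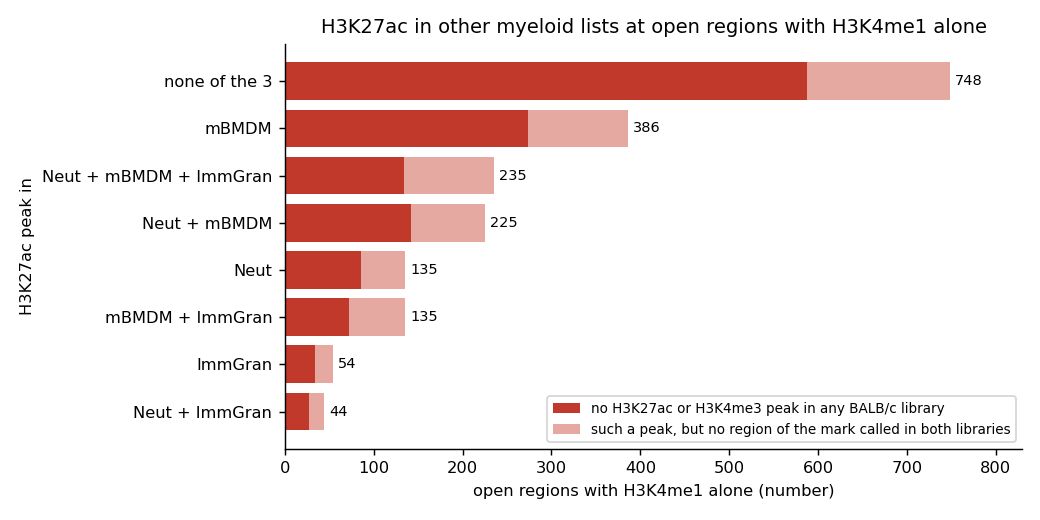
Number of open regions with H3K4me1 alone for each combination of H3K27ac peaks in the Neut, mBMDM and ImmGran lists. Dark bars are regions with no H3K27ac or H3K4me3 peak in any BALB/c library and pale bars the others. The largest bar is the 748 regions with none of the 3, followed by the 386 with mBMDM alone.

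PU.1 covered most of these regions in eosinophils. The eosinophil list had a peak at 1633 of the 1962, or 83.2% (81.5 to 84.8%), against 77.7% of all open regions. Of these regions 1589 held 1 PU.1 peak and 44 held more, and for 1121 (68.6%) the PU.1 peak was centred within 100 bp of the centre of the open region, with a median distance of 62 bp. These positions were not computed for other open regions, so they are a description and no trait of this set. The open regions with H3K4me1 and H3K27ac and no H3K4me3 had PU.1 at 94.0%, and the difference was -10.7 points (-12.7 to -8.75). Where a peak was present its fold had a median of 6.98, against 7.48 in those H3K4me1 and H3K27ac regions, 5.92 in the unmarked class and 6.17 over all open regions.

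Many of these regions also had a PU.1 peak in the other myeloid lists. Whether the peaks of different lists overlapped each other was not counted. In Neut 1385 regions had a PU.1 peak, or 70.6% (68.5 to 72.6%), against 63.6% of all open regions. In mBMDM 1487 had one, or 75.8% (73.8 to 77.6%), against 76.5% of all open regions, a share near that background. In ImmGran 967 had one, or 49.3% (47.1 to 51.5%), against 45.6% of all open regions. Against the unmarked class the differences were 18.1 points in Neut (15.8 to 20.4), 14.1 in mBMDM (11.9 to 16.3) and 18.9 in ImmGran (16.5 to 21.4). Against the H3K27ac class they were -9.55 points in Neut (-12.0 to -7.18), -1.49 in mBMDM (-3.84 to 0.813) and -8.57 in ImmGran (-11.3 to -5.84). Those differences turned on the overlap required: where a peak had to cover 50.0% of the open region they were 0.290 (-2.38 to 2.94), 5.56 (2.87 to 8.23) and 4.84 (2.17 to 7.52). With each PU.1 list limited to its 35266 top-scoring peaks, the shares were 65.6% in eosinophils (against 60.3% of all open regions), 51.0% in Neut (against 38.6%), 44.9% in mBMDM (against 35.2%) and 49.3% in ImmGran.

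PU.1 was shared between lists about as often at these regions as at open regions in general. All 4 lists had a peak at 856 regions (43.6%, against 40.3% of all open regions). A further 352 (17.9%, against 16.4%) had one in eosinophils, Neut and mBMDM and not in ImmGran, the shortest list. Only the eosinophil list had a peak at 154 regions (7.85%, against 5.63% of all open regions), and none of the 4 had one at 180 (9.17%, against 12.8%). A peak in eosinophils and in at least 1 other list was present at 1479 (75.4%, against 72.1%).

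**Figure D4:**
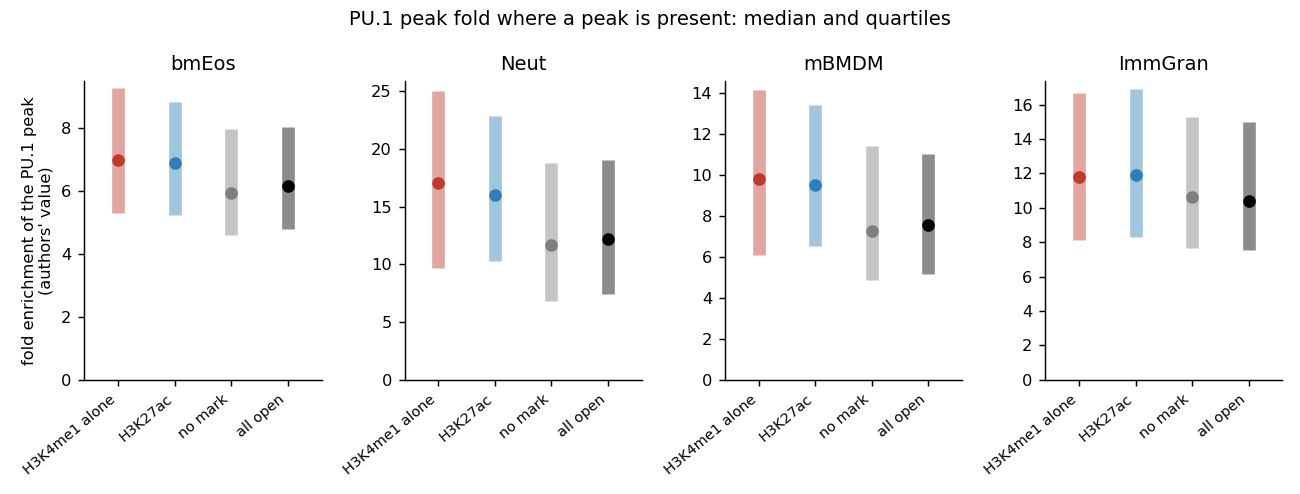
Fold enrichment of the PU.1 peak, the authors' own value, at open regions that have one, by class and list. Points are medians and bars run between the quartiles. Each panel has its own scale, since folds of different lists are not comparable, and in each panel the median at regions with H3K4me1 alone (red) lies above that of the unmarked class and of all open regions.

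Regions acetylated in Neut, mBMDM or ImmGran had PU.1 more often, both within and across these cell types. Of the 639 regions acetylated in Neut, 588 had Neut PU.1 (92.0%, 89.7 to 93.9%), against 60.2% of the 1323 not acetylated there, a difference of 31.8 points (28.3 to 35.0). Of the 981 acetylated in mBMDM, 921 had mBMDM PU.1 (93.9%), against 57.7% of the 981 not acetylated, a difference of 36.2 points (32.7 to 39.6). Of the 468 acetylated in ImmGran, 341 had ImmGran PU.1 (72.9%), against 41.9% of the 1494 not acetylated, a difference of 31.0 points (26.1 to 35.5). Across cell types the differences were nearly as large in some pairs: 30.5 points for Neut PU.1 and 28.8 for ImmGran PU.1 by mBMDM acetylation, and 27.2 for ImmGran PU.1 by Neut acetylation. For mBMDM PU.1 they were 15.2 points by Neut acetylation and 18.9 by ImmGran acetylation. Eosinophil PU.1 was higher by 11.2, 14.0 and 10.8 points by Neut, mBMDM and ImmGran acetylation, against 28.5, 30.3 and 28.5 over all open regions. By acetylation in both C57 libraries it was higher by 9.67 points (4.58 to 13.3). PU.1 then differed by 4.73 points in Neut (-2.27 to 10.8), 6.07 in mBMDM (-0.427 to 11.4) and 8.18 in ImmGran (0.643 to 15.5). Over all open regions the differences within Neut, mBMDM and ImmGran were 40.5, 40.9 and 29.8 points, so in Neut and mBMDM the difference at these regions was below that over all open regions. Whether it differs between them was not tested.

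**Figure D5:**
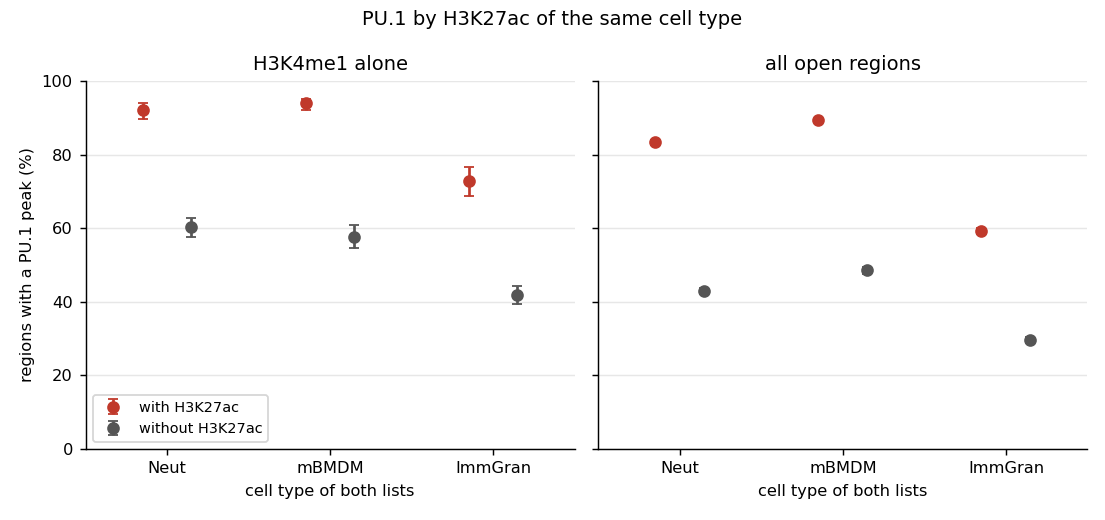
Share of regions (%) with a PU.1 peak of the cell type named on the x axis, for regions with (red) and without (grey) an H3K27ac peak of that cell type, at open regions with H3K4me1 alone (left) and at all open regions (right). Bars are 95% Wilson intervals. In each pair the red point is higher, 92.0% against 60.2% for Neut on the left.

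Regions acetylated in a single list were compared across the PU.1 lists. The 386 regions acetylated in mBMDM alone had PU.1 at 90.4% in mBMDM (87.1 to 93.0%), 72.8% in Neut and 51.8% in ImmGran. The 135 acetylated in Neut alone had it at 83.7% in Neut (76.6 to 89.0%), 63.7% in mBMDM and 48.9% in ImmGran. The order in the mBMDM set is also that of all 1962 regions (75.8% in mBMDM, 70.6% in Neut and 49.3% in ImmGran), whereas in the Neut set Neut stood above mBMDM. The 54 acetylated in ImmGran alone had PU.1 at 46.3% in ImmGran, 48.1% in Neut and 59.3% in mBMDM, with wide intervals (33.7 to 59.4% for ImmGran). All open regions acetylated in mBMDM, alone or not, had PU.1 at 89.3% in mBMDM, 72.8% in Neut and 55.2% in ImmGran. For those acetylated in Neut it was 83.3% in Neut, 89.1% in mBMDM and 62.3% in ImmGran. For ImmGran it was 59.3% in ImmGran, 76.4% in Neut and 89.4% in mBMDM. Sets acetylated in a single list were not counted over all open regions.

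Eosinophil PU.1, at 83.2% of all 1962 regions and 77.7% of all open regions, was spread over these sets too. It lay at 84.2% of the regions acetylated in mBMDM alone, 84.4% of those in Neut alone, 75.9% of those in ImmGran alone, 94.9% of the 235 acetylated in all 3 and 74.6% of the 748 acetylated in none. The sets with mBMDM alone and Neut alone were thus near the share of all 1962 regions, and those with ImmGran alone and with none were below that of all open regions. The fold of the eosinophil PU.1 peak had a median of 7.74 at regions acetylated in all 3 lists, 7.40 in 2, 7.05 in 1 and 6.47 in none. Region width followed the same order, with medians of 487, 450, 435 and 395 bp, and so did the share with an H3K27ac peak in C57 replicate 2, at 66.4%, 54.7%, 42.3% and 24.3%. An H3K27ac peak in BALB/c replicate 2 was present at 31.5%, 32.4%, 22.6% and 13.8%. The ATAC fold did not follow it, with medians of 4.64, 4.75, 4.68 and 4.67 in replicate 1. The part of width in the PU.1 shares was not tested in these sets.

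Width and openness differed between the classes, so the other classes were also weighted to the width and ATAC fold of the regions with H3K4me1 alone, in 25 strata. The weighted share of the unmarked class was 23.8% in Neut, 36.1% in mBMDM and 18.6% in ImmGran for H3K27ac, and 62.2% for eosinophil PU.1. The differences then became 8.77, 13.9, 5.22 and 21.0 points. The weighted share of the H3K27ac class was 56.8%, 65.0% and 52.9% for H3K27ac in the same 3 lists, and 89.1% for eosinophil PU.1.

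Individual regions are given from the 1357 with no H3K27ac or H3K4me3 peak in any BALB/c library. They were picked by rank, so counts among 5 of them do not describe the 1357. All folds are the authors' values and are comparable within a list only. The strongest in C57, by the lower of its 2 folds, was chr5:33068866-33069177, with H3K27ac folds of 4.44 and 6.26 in C57 and H3K4me1 folds of 4.56 and 5.28 in BALB/c. It had H3K27ac in Neut (3.47) and mBMDM (3.78) and not in ImmGran, and a PU.1 fold of 7.17 in eosinophils. The next were chrX:11457840-11458548 with C57 H3K27ac folds of 5.68 and 4.22, chr7:52996773-52997034 with 3.88 and 4.02 and chr7:105842533-105842902, whose lower fold was 3.86. The fifth, chr14:62117002-62117399, with 3.94 and 3.77, had H3K27ac in none of Neut, mBMDM and ImmGran, and PU.1 only in eosinophils, at a fold of 4.00. All 5 had eosinophil PU.1, against 79.7% of the 1357 and 77.7% of all open regions. Of the 5, 4 were acetylated in mBMDM, against 45.8% of the 1357 and 68.6% of all open regions.

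The strongest Neut acetylation lay at chr6:146358397-146359046, with an H3K27ac fold of 7.92 in Neut, 4.07 in mBMDM and 5.54 in ImmGran. C57 replicate 2 had a peak there (3.95) and replicate 1 none. The Neut PU.1 fold was 13.5 and the eosinophil one 5.58. The next 4 were chr17:48426257-48426914, chr5:97409030-97409542, chrX:98965485-98965947 and chr5:77721838-77722171, with Neut H3K27ac folds between 6.17 and 6.92. All 5 were acetylated in mBMDM and ImmGran as well. Acetylation in all 3 lists was found at 9.87% of the 1357 and 38.7% of all open regions. The last 4 had PU.1 in all 4 lists, against 43.6% of the 1962 regions and 40.3% of all open regions. At chr5:77721838-77722171 PU.1 folds were 13.8 in eosinophils, 35.0 in Neut, 13.9 in mBMDM and 22.8 in ImmGran, and a BALB/c H3K27ac region lay 65 bp away.

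In mBMDM the strongest was chr8:98376176-98376546, with an H3K27ac fold of 8.19 in mBMDM and 3.87 in Neut and no peak in ImmGran or C57. It lay 47 bp from a BALB/c H3K4me3 region. The next were chr11:35641257-35641604 at 7.85, chr8:60009679-60010114 at 7.52, chr12:103762521-103762784 at 7.45 and chr1:162198209-162198810 at 7.14. None of the 5 had an H3K27ac peak in C57, as was so for 71.0% of the 1357 and 33.0% of all open regions. All 5 had PU.1 in all 4 lists, against 43.6% of the 1962 regions and 40.3% of all open regions. At chr12:103762521-103762784 the PU.1 folds were 12.7 in eosinophils, 38.7 in Neut, 23.9 in mBMDM and 25.2 in ImmGran, and Neut had no H3K27ac peak there although its PU.1 fold was high. The same held at chr1:162198209-162198810, where Neut PU.1 stood at 32.8.

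In ImmGran the strongest was chr18:32512235-32512648, with an H3K27ac fold of 9.15 in ImmGran and 3.87 in mBMDM, and PU.1 in the other 3 lists but not in ImmGran. The next were chr11:118224336-118224877 at 8.92, chr15:58937581-58937860 at 8.74, chr10:16941306-16941917 at 8.24 and chr1:145313271-145313600 at 8.11. At chr10:16941306-16941917 the H3K4me1 peak of replicate 1 did not itself overlap the open region, and a BALB/c H3K27ac region lay 38 bp away. Of these 5, PU.1 was called in ImmGran at 2 (against 46.7% of the 1357 and 45.6% of all open regions). It was called in Neut at all 5 (against 69.2% and 63.6%). At chr1:145313271-145313600 Neut and ImmGran had PU.1 (21.0 and 14.1) and acetylation (4.23 and 8.11), while eosinophils and mBMDM had no PU.1 peak. It is the only one of the named regions without eosinophil PU.1.

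H3K27ac in both C57 libraries and in all 3 other lists was found at 23 of the 1357 regions (1.69%, against 33.0% of all open regions). Ranked by the lower H3K4me1 fold, the first was chr5:97409030-97409542 again, with H3K4me1 folds of 3.48 and 3.65 in BALB/c and H3K27ac folds of 3.59 and 3.40 in C57. It had 6.30 in Neut, 4.46 in mBMDM and 5.50 in ImmGran. The others were chr10:66326975-66327635, chr9:70791299-70791554, chr9:56054961-56055544 and chr8:119598256-119598843. At 2 of the 5, chr9:70791299-70791554 and chr8:119598256-119598843, the C57 replicate 1 peak belonged to the joined region and did not itself overlap the open region. Eosinophil PU.1 folds at the 5 ranged between 6.71 and 11.6, and Neut PU.1 between 13.5 and 27.5.

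A last set was ranked by H3K4me1 among the 572 regions with no H3K27ac called in both C57 libraries and none in the other 3 lists. The first, chr5:28425692-28426022, had H3K4me1 folds of 7.71 and 6.99, against a median of 3.11 in each replicate over the 1357. It had no ATAC peak in C57, and PU.1 at 13.0 in eosinophils and 6.12 in ImmGran. Next came chr14:105114939-105115244, with ATAC folds of 10.5 and 11.9 in BALB/c and PU.1 in all 4 lists, at 18.0 in eosinophils. The remaining 3 were chr18:11288541-11288885 with H3K4me1 folds of 9.57 and 5.14, chr17:42880548-42881411 with 6.78 and 5.05, and chr14:7469419-7469954 with 5.93 and 5.03. These 3 had PU.1 in eosinophils only, at folds of 9.54, 6.01 and 11.0, and no C57 ATAC peak. C57 replicate 2 alone had H3K27ac at 2 of the 5, chr14:105114939-105115244 (4.54) and chr14:7469419-7469954 (4.58). In all, 4 of the 5 were open in BALB/c and not called open in C57, against 155 of all 1962 and 1556 of all 27402 open regions. The 5 were picked by their H3K4me1 fold, so this count does not describe the other regions.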

How the data were processed

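The authors deposited 1 peak list per library, with a score, a fold enrichment (a ratio) and a −log10 q per peak. The deposited score equals 10 times the −log10 q, rounded down. Per the submitters' processing notes, the build was mm9 and the tools included bedtools 2.27.0, Bowtie2 2.3.4.1, Picard 1.89, Trim Galore 0.4.2, FastQC 0.11.7 and HOMER, with no role stated. Which tool called the peaks is not given in the sources used here. Per the labels' protocols, ChIP libraries were made by ChIPmentation and ATAC libraries by Omni-ATAC, and both use a transposase, which cuts open DNA most readily and can add signal there.

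Overlaps, 95% Wilson and Newcombe intervals and medians were computed from 19 lists with Python 3.11.15, numpy 2.4.6 and pandas 2.3.3, with a minimum overlap of 1 bp. The overlap code recovered every planted region on simulated lists. When several peaks overlapped a region, the highest fold was used. The Neut, mBMDM and ImmGran lists belong to no sample of the series and are used as the authors' lists, with no SD. The 4 RNA tables, of which 2 are columns of other series, were not used, since no region could be tied to a gene. The regions, lists and comparisons were chosen with earlier results of these data known. Named are, among regions with no single-library H3K27ac or H3K4me3 peak, the 5 with the highest H3K27ac fold in C57 (lower of both), Neut, mBMDM and ImmGran, and the 5 with the highest H3K4me1 fold (lower of both) among those acetylated in none and in all of them. The weighting of classes by width and ATAC fold was added after the data were seen.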

Additional observations from a re-analysis of the deposited data

How the results depend on the processing

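With marks called in either BALB/c library, the 1357 regions had H3K27ac at 5.60% in both C57 libraries, 28.7% in Neut, 45.8% in mBMDM and 19.7% in ImmGran, PU.1 at 79.7% in eosinophils and 46.7% in ImmGran, and a PU.1 difference by acetylation of 32.5 points in mBMDM. When 50.0% of the open region had to be covered, 2002 regions had H3K27ac at 11.4%, 29.6%, 37.1% and 15.9% in C57, Neut, mBMDM and ImmGran, PU.1 at 77.5%, 63.6%, 64.1% and 39.3% in eosinophils, Neut, mBMDM and ImmGran, and PU.1 differences of 28.4 points in mBMDM and 17.6 in ImmGran. Under that setting the difference from the H3K27ac class turned from negative to positive for PU.1 in ImmGran (4.84 points), in mBMDM (5.56 points, against -1.49 with an interval across 0) and in Neut (0.290 points, with an interval of -2.38 to 2.94). The cause was not tested. With a −log10 q of at least 2, 529 regions had H3K27ac at 37.1% in Neut and 53.9% in mBMDM, PU.1 at 88.7% in eosinophils, 74.3% in Neut and 55.6% in ImmGran, and a PU.1 difference of 30.5 points in mBMDM. With lists of equal length the shares were 4.49%, 20.7%, 14.4% and 9.58% for H3K27ac in C57, Neut, mBMDM and ImmGran, and 65.6%, 51.0% and 44.9% for PU.1 in eosinophils, Neut and mBMDM, with PU.1 differences of 43.7 points in Neut and 44.9 in mBMDM. Keeping in each PU.1 list the 50.0% of peaks with the highest scores gave 61.7%, 55.9%, 58.7% and 34.6% in eosinophils, Neut, mBMDM and ImmGran, with differences of 44.3 points in Neut and 45.5 in mBMDM. Leaving out regions within 1 kb of H3K27ac or H3K4me3 kept each share within its interval.

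Leaving out 1 library at a time gave between 1557 and 2612 regions, and H3K27ac shares of 7.13% to 40.9% in C57, 29.5% to 32.9% in Neut, 46.9% to 49.9% in mBMDM and 20.8% to 23.8% in ImmGran. PU.1 shares ran between 78.4% and 83.1% in eosinophils, 67.3% and 71.1% in Neut, 71.6% and 75.9% in mBMDM, and 45.5% and 49.4% in ImmGran, and the PU.1 differences by acetylation between 31.8 and 35.3 points in Neut, 34.4 and 39.2 in mBMDM, and 28.3 and 31.9 in ImmGran. The value of 40.9% came without C57 replicate 1. No paired analysis was possible because the shares come from no test over samples. The depth of the libraries is unknown.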

Other observations

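Open regions with H3K4me1 alone were scarce on the X chromosome. They made up 13 of 593 open regions there, or 2.19% (95% Wilson interval 1.29 to 3.71%), against 7.28% (6.97 to 7.59%) on chromosomes 1 to 19, where single chromosomes ranged from 5.24% to 10.0%. H3K4me1 of any kind lay at 5.06% of open regions on X and at 20.4% on chromosomes 1 to 19, whereas H3K27ac lay at 59.0% and 55.5%. The H3K4me1 lists had 0.740% and 0.882% of their peaks on X in replicates 1 and 2, and the BALB/c ATAC, H3K27ac and H3K4me3 lists between 2.11% and 3.00%. The H3K4me1 lists as a whole were thus low on X, and their part in the share of 2.19% was not tested.

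Of the 88 open regions on unplaced or random contigs 4 met the rule by their peak calls, as did 1 of the 2 on the mitochondrial genome. They were kept among the 1962 regions. Whether these calls reflect H3K4me1 at those places was not tested.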
